A study of Mus musculus with 4 samples.

Results

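The middle of the mouse tibialis anterior, a shin muscle made mainly of fast fibres, was set against the tissue on either side of it. Cross-sections of each muscle were placed at a relative position between 0, the first section the authors kept, and 1, the last, by the number of their barcode. The muscle was cut into 5 zones of equal length along this axis. The central zone held the sections at 0.4 to under 0.6, which were 33 of 171 kept sections (6, 9, 9 and 9 in muscles 1 to 4). The flanking zones held 66 sections (15, 18, 17 and 16), of which 32 lay at 0.2 to under 0.4, called the low-barcode flank, and 34 at 0.6 to under 0.8, called the high-barcode flank. Kept sections were found by matching the columns of the deposited count tables with those of a filtered table of the same muscle.

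The samples were 4 tibialis anterior muscles measured by TOMO-seq, which sequences each cryosection of a tissue under a barcode of its own, here with the CEL-Seq2 chemistry that counts transcript ends. All 4 muscles form 1 group, so the comparison is within each muscle, with the 4 muscles as replicates. The labels give no strain, sex, age, genotype or treatment, do not name separate animals, and do not say which end of the muscle was cut first. The spread between these samples may therefore be technical. The p-values below come from a fit that pools the spread of all zone sums and borrows information across genes. They do not measure the spread of the 4 single-muscle differences alone.

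Muscle fibres of the mouse limb are typed by the myosin heavy chain they make: Myh4 marks the fast glycolytic type 2B, Myh1 type 2X, Myh2 the fast oxidative type 2A and Myh7 the slow type 1. Each fibre carries a single neuromuscular synapse, usually in a band across the belly, and the nuclei beneath it transcribe acetylcholine receptor subunits such as Chrne and the kinase Musk. The fibre ends attach to tendon, whose cells make matrix proteins such as Chad and Fmod.

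Transcripts of fast fibres matched the label of the tissue: the middle 3 zones averaged 6315 CPM (transcripts of the gene per 1000000 of its library) of Myh4, a gene near the limit of its molecular barcodes, and 857 CPM of Myh1, while Myh7 was too low to be tested. The counts of each zone of a muscle were summed. The central sums held 3269099, 4856327, 5079962 and 5976383 transcripts in muscles 1 to 4, which is 0.814, 1.33, 0.796 and 1.59 times the mean of the 2 flanks of the same muscle. Mitochondrially encoded genes took 54.7%, 62.1%, 67.99% and 65.3% of the central counts against 60.1%, 59.7%, 62.9% and 69.5% of the flank counts. Centre and flanks thus differed in depth and in mitochondrial share in each muscle, but not in 1 direction over the muscles. Of 13 mitochondrially encoded genes 11 were near the limit of their molecular barcodes in at least 1 kept section. These totals and shares are therefore uncertain. Since whole sections were measured, fewer cells of a type and less RNA per cell cannot be told apart. Muscles 1 and 2 used another set of section barcodes from muscles 3 and 4.

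The sequences upstream of 2 genes are shown for reference, and no difference below was related to them. Chrne is the receptor subunit made by synaptic nuclei of adult muscle, and Myh2 is the most abundant gene called between the centre and its flanks. Both sequences are from RefSeq (GRCm38.p6), 5′ to 3′ on the strand of the gene and end at the base before the annotated start. Capitals in the Chrne sequence mark an E-box (CANNTG, first base at -138 from the start), the motif of the MyoD family, and an N-box (CCGGAA, first base at -76), known as the binding motif of GABP in synaptic genes. The window of Chrne is chr11:70619195-70619444 on the minus strand and that of Myh2 is chr11:67170777-67171026 on the plus strand.
Chrne: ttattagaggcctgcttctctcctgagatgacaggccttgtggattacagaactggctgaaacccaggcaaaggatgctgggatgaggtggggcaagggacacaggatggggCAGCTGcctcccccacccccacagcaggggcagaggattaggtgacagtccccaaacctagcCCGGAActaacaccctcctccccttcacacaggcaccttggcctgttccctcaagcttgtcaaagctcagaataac
Myh2: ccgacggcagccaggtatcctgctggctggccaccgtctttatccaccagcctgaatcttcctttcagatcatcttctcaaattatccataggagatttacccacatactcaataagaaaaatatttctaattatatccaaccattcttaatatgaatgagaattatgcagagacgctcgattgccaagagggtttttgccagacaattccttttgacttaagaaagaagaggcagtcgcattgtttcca
Myh2 had neither motif on either strand in its window of 300 bases, which runs to 50 bases past the start. Over 32851 RefSeq promoters of the same length, 14.9% held the N-box and 72.3% the E-box on 1 of the strands. Of 4 receptor subunits with a RefSeq promoter 1 held the N-box and 4 the E-box. These matches describe letters in a window and are not shown to be binding sites.

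Few transcripts distinguished the central zone. Of 9632 genes tested 4 differed from the mean of both flanks, which is 0.0415% (edgeR quasi-likelihood test with muscle as block, Benjamini-Hochberg adjusted p under 0.05). Higher in the centre were 3 genes (0.0311%), Myh2, the integrin subunit Itgad and the noncoding RNA AL645799.1, and lower was 1 (0.0104%), the transmembrane protein Tmem100. At an unadjusted p under 0.05 the count was 508, or 5.27%, and neither DESeq2 nor limma called any gene. The median log2 difference over all tested genes was 0.01, and 5041 differences (52.3%) were positive.

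The intervals around the differences, which come from the pooled fit, were narrow for abundant genes. They can be narrower than the spread of the 4 single-muscle differences. The 95% interval of the log2 difference lay within 1 unit of 0 on both sides for 9047 of 9632 genes (93.9%) and within 0.5 for 5204 (54.03%). Among the 3574 more abundant genes, averaging 10 CPM or above, these counts were 3573 and 3483 (97.5%). Differences had the same sign in 4 of 4 muscles for 1270 genes (13.2%). The 4 central values lay outside the range of the 4 flank values for 70 genes (0.727%).

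**Figure D1:**
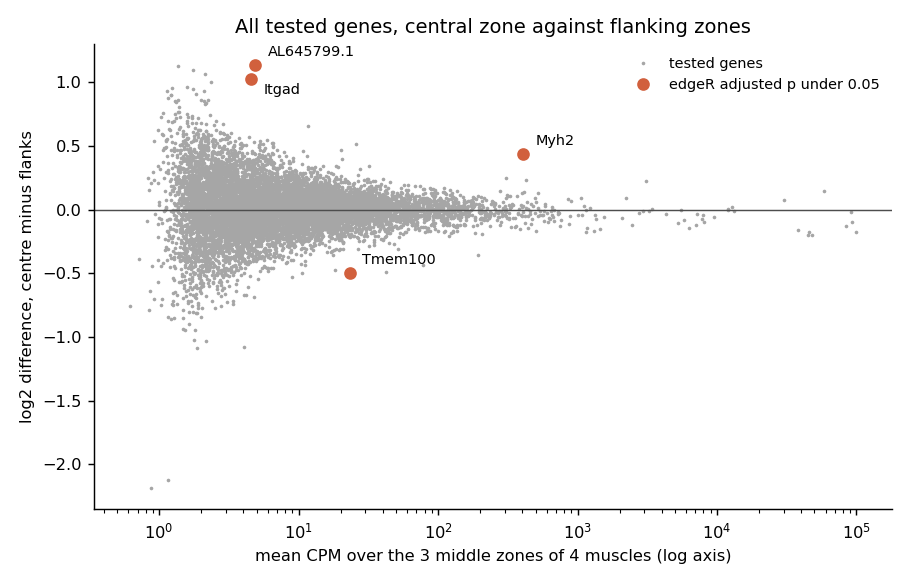
Log2 difference between the central zone and the mean of the flanking zones (vertical axis) against mean CPM over the middle 3 zones of 4 muscles (horizontal log axis) for 9632 tested genes, each a grey point. The 4 orange points, with adjusted p under 0.05 by edgeR, are Myh2, Itgad and AL645799.1 above 0 and Tmem100 below it, and most points narrow toward 0 as abundance grows.

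Myh2 was the called gene with the highest level. Its central sums held 886, 619, 275 and 178 CPM in muscles 1 to 4. The low-barcode flanks held 701, 547, 260 and 108 CPM and the high-barcode flanks 557, 445, 180 and 123 CPM. In these TMM-scaled values the centre of every muscle was above both of its own flanks. In muscle 3 its place above the low-barcode flank rested on the scaling (1385 counts of 5059146 against 1731 of 6129697). The 4 muscles differed among themselves by more than the zones did, so the groups overlapped. The log2 difference was 0.44 ± 0.09 (SE of the fit to all zones of 4 muscles, edgeR adjusted p = 0.0449), while muscles 1 to 4 gave 0.50, 0.33, 0.35 and 0.63. Against the high-barcode flank alone it was 0.58 (edgeR adjusted p = 0.00383), and against the low-barcode flank alone 0.29, which did not pass (edgeR adjusted p = 0.751).

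Along the whole muscle the centre was the highest of 5 zones for Myh2 in muscles 1, 3 and 4. In muscle 2 the first zone was higher, at 627 CPM. Single sections of muscle 1 had a median of 987 CPM in the centre (range 750 to 1404) and 691 CPM in the flanks (484 to 859). In muscle 4 the medians were 143 CPM in the centre (65.6 to 228) and 81.3 CPM in the flanks (44.2 to 178), so sections of both zones overlapped in each of these muscles. At the 2 limits of the centre in each muscle, the 8 sections nearest on the inside had a median of 423 CPM (range 69.6 to 1075) and the 8 nearest on the outside 396 CPM (range 173 to 810). These medians pool muscles of unlike level. Both inside sections were above both outside ones in muscle 1, and below both in muscle 4 (69.6 and 168 against 173 and 178 CPM). Muscles 2 and 3 were mixed. Myh2 lies on chromosome 11 at 67171027 to 67197517 (GRCm38, plus strand) and overlaps 9430073C21Rik on the opposite strand. The use of strand in counting is not given in the sources used here, so its counts can include that gene.

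Tmem100 was the 1 gene called lower in the centre. Its central sums held 12.1, 15.01, 20.7 and 24.4 CPM in muscles 1 to 4. The low-barcode flanks held 12.9, 22.1, 32.7 and 31.4 CPM and the high-barcode flanks 16.7, 20.9, 37.7 and 32.1 CPM. In these TMM-scaled values the centre was below both flanks of its own muscle in all 4 muscles, while the groups overlapped across muscles. In muscle 1 its place below the low-barcode flank rested on the scaling (49 counts of 3249619 against 45 of 3428919). Single sections of muscle 1, unscaled, had a median of 15.9 CPM in the centre and 14.5 CPM in the flanks. In muscles 2, 3 and 4 the central median was the lower (15.2 against 22.3, 22.8 against 33.3 and 18.9 against 24.5 CPM). The log2 difference was -0.50 ± 0.11 (SE of the fit, 4 muscles, edgeR adjusted p = 0.0449), while muscles 1 to 4 gave -0.27, -0.51, -0.75 and -0.37. It passed against the high-barcode flank alone (-0.57, edgeR adjusted p = 0.0145) and not against the low-barcode flank alone (-0.44, edgeR adjusted p = 0.413). In the scaled values the centre was the lowest of the 5 zones in 4 of 4 muscles. The margin was small in muscle 1 (12.9 CPM in the low-barcode flank) and in muscles 2 and 4, where the first zone held 15.4 and 25.2 CPM. Tmem100 lies on chromosome 11 at 90030348 to 90036508 (GRCm38, plus strand), with no overlapping gene on the other strand.

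**Figure D2:**
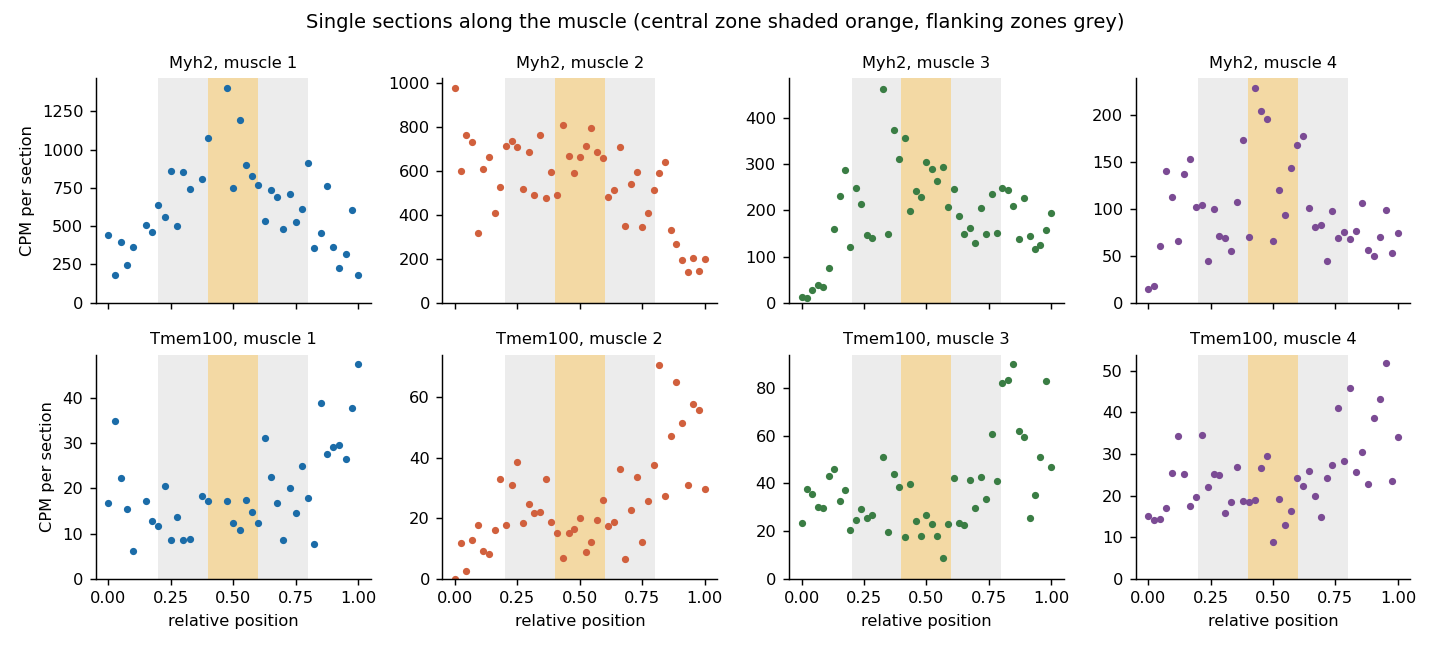
Estimated CPM of Myh2 (top) and Tmem100 (bottom) in single sections, against relative position from 0 to 1, with 1 panel per muscle. Orange shading marks the central zone and grey the flanking zones. The highest section for Myh2 lies in the centre in muscles 1 and 4, in the low-barcode flank in muscle 3 and at position 0 in muscle 2, with wide scatter between neighbouring sections, and Tmem100 is higher toward position 1 than in the centre.

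Itgad and AL645799.1 were called at low counts. Itgad, an alpha integrin of leukocytes, had 26, 46, 49 and 10 counts in the central sums of muscles 1 to 4, or 6.40, 8.74, 9.74 and 1.94 CPM. Its low-barcode flanks had 4.60, 5.29, 2.25 and 1.68 CPM and its high-barcode flanks 4.60, 5.17, 2.63 and 1.46 CPM. The centre was above both flanks in each muscle, by most in muscle 3, and the groups overlapped because muscle 4 was low in every zone. The log2 difference was 1.02 ± 0.20 (SE of the fit, 4 muscles, edgeR adjusted p = 0.0167), while muscles 1 to 4 gave 0.44, 0.69, 1.80 and 0.24. Leaving out muscle 3 gave 0.58, leaving out muscle 2 gave 1.17, and neither passed. Itgad lies on chromosome 7 at 128154376 to 128223816 (GRCm38, plus strand) and overlaps Cox6a2, a respiratory chain subunit of heart and muscle, on the opposite strand. Cox6a2 averaged 5533 CPM over the middle 3 zones, and its own log2 difference was -0.00 (edgeR adjusted p = 0.99960). Whether reads of Cox6a2 are counted under Itgad was not tested.

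AL645799.1, a long noncoding RNA named in the files and not placed by the annotation used here, had 3, 131, 9 and 11 counts in the central sums of muscles 1 to 4. The low-barcode flanks had 1, 83, 9 and 2 counts and the high-barcode flanks 5, 19, 6 and 2. The values thus rest largely on muscle 2, and without muscle 2 the gene did not reach the filter on low counts. Single sections of muscle 2 had a median of 24.4 CPM in the centre (range 3.89 to 47.8) and 6.90 CPM in the flanks (0 to 131), so the highest section was a flank section. The log2 difference was 1.13 ± 0.22 (SE of the fit, 4 muscles, edgeR adjusted p = 0.0167), while muscles 1 to 4 gave 0.21, 1.27, 0.52 and 1.13.

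**Figure D3:**
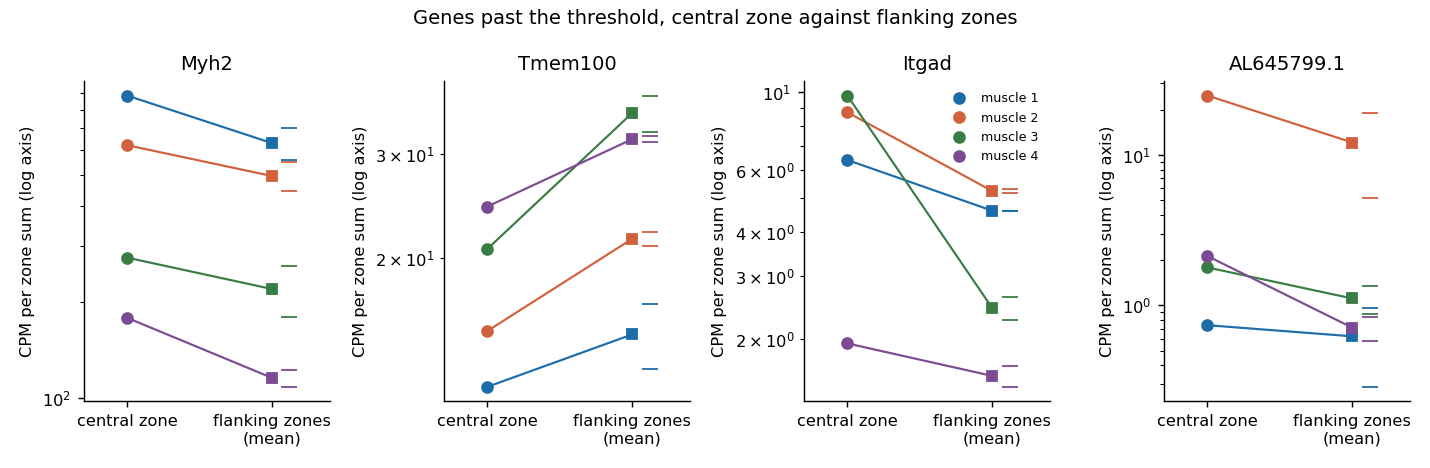
CPM per zone sum (log axes) of the 4 called genes in the central zone (left, circles) and as the mean of the flanking zones (right, squares), with a coloured line per muscle and short dashes for each flank. Lines of Myh2, Itgad and AL645799.1 are higher at the left and those of Tmem100 lower, while the range over muscles exceeds the distance between zones for Myh2.

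The 4 calls depended on single muscles to different degrees. Myh2 was called without muscle 2 (0.47, edgeR adjusted p = 0.00668) and not without muscle 1 (0.41, edgeR adjusted p = 0.146), muscle 3 (0.47, edgeR adjusted p = 0.123) or muscle 4 (0.40, edgeR adjusted p = 0.197). Tmem100 was called without muscle 1 (-0.54, edgeR adjusted p = 0.0331) and not without muscle 2 (-0.50), muscle 3 (-0.40) or muscle 4 (-0.57, edgeR adjusted p = 0.0623). Itgad was called without muscle 1 (1.22, edgeR adjusted p = 0.00802) and without muscle 4 (1.10, edgeR adjusted p = 0.0189), and not without muscle 2 (edgeR adjusted p = 0.0544) or muscle 3 (edgeR adjusted p = 0.99956). AL645799.1 was called without muscle 1 (1.23, edgeR adjusted p = 0.000735), muscle 3 (1.21, edgeR adjusted p = 0.0281) and muscle 4 (1.115, edgeR adjusted p = 0.0321), and was not tested without muscle 2. The number of called genes was 5, 3, 1 and 2 without muscles 1 to 4. The direction of all 4 genes was kept in each alternative in which they were tested, all on the same data, but the calls were often lost. Myh2 and Tmem100 were each called in 5 of 19 alternatives, Itgad in 10 of 18 and AL645799.1 in 10 of 16.

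Of 34 gene lists the fast fibre list was the only one with a member called by edgeR, which was Myh2. Of its 13 measured fast fibre genes 1 was called (0.0415% of all genes) and 2 had a positive difference. Their median was -0.07 against 0.01 over all genes. Of the 13, 6 were near the limit of their molecular barcodes in at least 1 kept section, so their values are uncertain. Myh1 was at 0.08 and the saturated Myh4, positive in 0 of 4 muscles, at -0.14 (edgeR adjusted p = 0.903). Casq1, the calcium buffer of the fast sarcoplasmic reticulum, was at -0.17 ± 0.08. At an unadjusted p under 0.05, 3 of 13 genes were negative (5.27% of all genes in either direction). Of 10 slow fibre genes 5 were measured and Myh7, Myl2, Tnnt1, Tnni1 and Tnnc1 were not. The measured 5 had a median of 0.15, with 4 positive and 0 called by edgeR (2 at an unadjusted p under 0.05, against 5.27% of all genes). Myl3, the slow myosin light chain, held 49.7, 16.7, 15.7 and 16.1 CPM in the centre against 34.7, 10.9, 14.4 and 13.4 CPM in the flanks of muscles 1 to 4. Its log2 difference of 0.39 ± 0.12 did not pass (edgeR adjusted p = 0.651). Myoz2, a Z-disc protein, was at 0.32 ± 0.13, positive in 4 of 4 muscles and likewise not called.

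Among the remaining genes of at least 10 CPM with the same sign in 4 of 4 muscles, none passed. The 10 of smallest p in each direction were taken. Those with positive values ranged from 0.23 to 0.47 and those with negative values from -0.50 to -0.27. Apart from Myh2 and Tmem100 their edgeR adjusted p was 0.484 or more. The same direction against both flanks was seen in 19 of the 20, which follows largely from how they were picked. In 0 of 20 did the 4 central values clear the 4 flank values, against 0.448% of all genes of at least 10 CPM.

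The genes with positive values were of different kinds. Lmod2, a leiomodin that elongates thin filaments, held 33.98, 39.1, 17.5 and 10.1 CPM in the centre against 22.9, 25.5, 14.3 and 8.38 CPM in the flanks of muscles 1 to 4, a log2 difference of 0.47 ± 0.13 (edgeR adjusted p = 0.484). With zones 2 to 4 alone in the fit it passed (0.48, edgeR adjusted p = 0.0483), and 6 genes were called in place of 4. Hspb7, a small heat shock protein of muscle, was at 0.34 ± 0.09. Ndufa4 and Cox8b, subunits of the respiratory chain, were at 0.23 ± 0.06 and 0.24 ± 0.07. For Cox8b the difference was 0.68 in muscle 3 against 0.07, 0.08 and 0.13 in muscles 1, 2 and 4. The others were Pphln1 (0.46), Spsb1 (0.42), Fam120a (0.24) and Rhot2, a mitochondrial GTPase (0.23). Over all 22 nuclear respiratory chain genes the median was 0.01, with 13 positive, 3 positive at an unadjusted p under 0.05 and 0 called.

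Of the genes with negative values, Wsb2, a SOCS-box protein, held 8.62, 6.08, 7.95 and 10.8 CPM in the centre against 12.03, 8.22, 14.3 and 12.6 CPM in the flanks of muscles 1 to 4 (-0.50 ± 0.14, edgeR adjusted p = 0.509). Acvr2a, a receptor of activins and myostatin, was at -0.27 ± 0.08. Pet100, an assembly factor of cytochrome c oxidase, was at -0.29, and the phosphate exporter Xpr1 at -0.28. Airn, an antisense RNA of Igf2r, was at -0.31, and its counts overlap that gene. Ppp1r7 (-0.33), Lrrc30 (-0.43) and Spns2, a sphingosine-1-phosphate transporter (-0.36), completed the set with Actc1 (-0.36), which passed with no filter on low counts (-0.37, edgeR adjusted p = 0.00367).

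No gene of the neuromuscular synapse was called in the central zone. Of 30 listed genes 19 were measured, at 1.66 to 68.7 CPM, with 0 called by edgeR and 1 at an unadjusted p under 0.05 (5.27% of all genes). Since 0.0415% of all genes were called, 0 of 19 does not set these genes apart. Of the 19 differences 8 were positive and 11 negative, with a median of -0.03 against 0.01 over all genes. The balance differed between the flanks: against the low-barcode flank 3 of 19 were positive, with a median of -0.15 (51.8% of all genes positive, median 0.01), and against the high-barcode flank 11 of 19, with a median of 0.04 (50.5% of all genes, median 0.00). The lowest adjusted p was 0.658, for Dok7, against the low-barcode flank and 0.417, for Etv5, against the high-barcode flank (edgeR). The same sign in 4 of 4 muscles was seen for 2 of 19, against 13.2% of all genes. Not measured above the filter were Chrnd, Chrng, Colq, Col13a1, Nid2, Lrp4, Agrn, Erbb2, Erbb3, Etv4 and Ano4.

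Of the receptor subunits, Chrne held 8.13, 5.32, 4.97 and 8.33 CPM in the centre of muscles 1 to 4. Its low-barcode flanks held 11.8, 8.74, 5.25 and 10.1 CPM and its high-barcode flanks 10.5, 5.71, 2.77 and 7.88 CPM. The centre lay below both flanks in muscles 1 and 2, between them in muscles 3 and 4, and the groups overlapped. The log2 difference was -0.20 ± 0.18 (SE of the fit, 4 muscles, 95% interval -0.55 to 0.16, edgeR adjusted p = 0.957). Chrna1, the alpha subunit, was at 0.23 ± 0.34 and Chrnb1, the beta subunit, at -0.05 ± 0.11. Chrne lies on chromosome 11 at 70614883 to 70619216 (GRCm38, minus strand) and overlaps 4930544D05Rik on the opposite strand.

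Of the organisers of the synapse, Dok7, the adaptor that activates Musk, held 3.94, 5.89, 4.57 and 3.10 CPM in the centre against 4.46, 2.99, 2.58 and 2.21 CPM in the flanks of muscles 1 to 4. It was above the flank mean in muscles 2, 3 and 4, at 16 to 31 counts per central sum. Its log2 difference of 0.54 ± 0.22 was the largest of the 19 and did not pass (edgeR adjusted p = 0.903). Musk itself was at -0.04 ± 0.22 and Rapsn, which clusters the receptor, at -0.29 ± 0.15. Etv5, a transcription factor of synaptic nuclei, was at 0.47 ± 0.30 and Ache, the esterase of the cleft, at -0.24 ± 0.20. The lowest value was that of the laminin Lama5, at -0.57 ± 0.33.

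**Figure D4:**
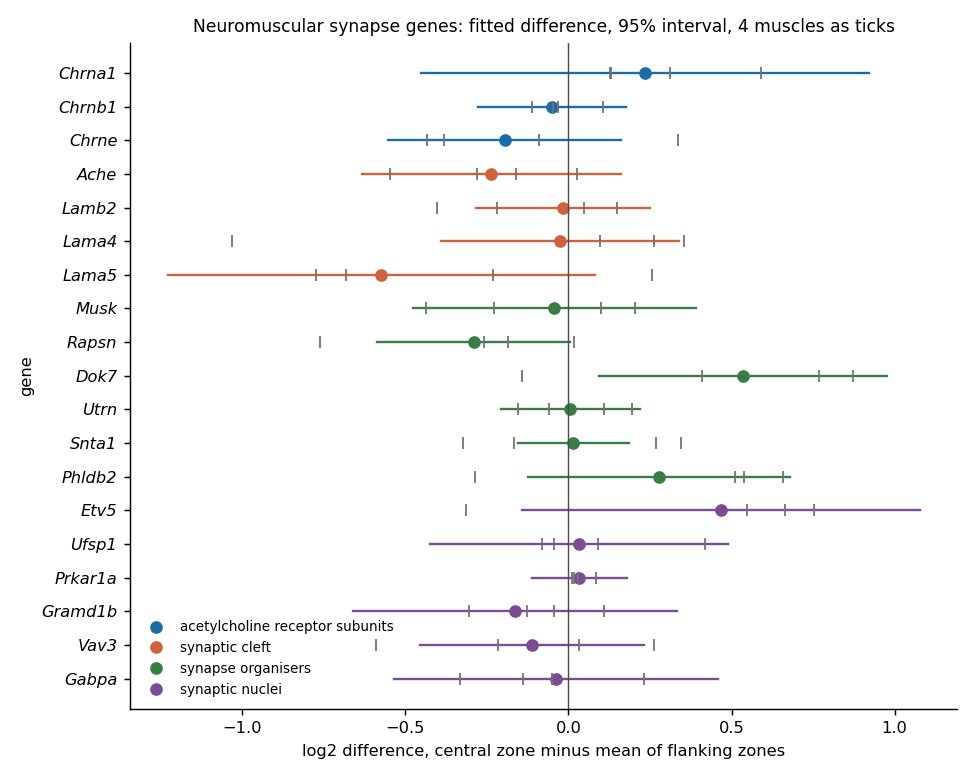
Log2 difference between the central zone and the mean of the flanking zones (horizontal axis) for the 19 measured synapse genes, as the fitted value (circle), its 95% interval (line) and the 4 single muscles (grey ticks), coloured by list. The interval of Dok7 alone lies wholly on 1 side of 0, and its adjusted p did not pass.

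The stretch-responsive genes had values of both signs. Ankrd1, a stretch-induced protein of the sarcomere, had 3, 16, 8 and 19 counts in the centre of muscles 1 to 4, or 0.739, 3.04, 1.59 and 3.68 CPM. Its low-barcode flanks held 4.02, 5.98, 5.70 and 2.09 CPM and its high-barcode flanks 3.26, 5.44, 5.11 and 8.17 CPM. The centre was the lowest of the middle 3 zones in muscles 1 to 3 and not in muscle 4. The log2 difference of -1.08 ± 0.32 did not pass (edgeR adjusted p = 0.561). It passed with no filter on low counts (-1.10, edgeR adjusted p = 0.00859) and with zones 2 to 4 alone in the fit (-1.16, edgeR adjusted p = 0.0483). Its relative Ankrd2 was at 0.32 and the Z-disc protein Csrp3 at 0.46 ± 0.18, both positive in 4 of 4 muscles. Over the 6 genes of the list the median was 0.02, with 2 positive and 2 negative at an unadjusted p under 0.05 and 0 called.

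Mss51, a mitochondrial protein of muscle, held 120, 113, 4.18 and 24.2 CPM in the centre of muscles 1 to 4. Its low-barcode flanks held 113, 106, 19.95 and 20.1 CPM and its high-barcode flanks 175, 151, 21.2 and 65.4 CPM. The centre of muscle 3 was lower than each of the other 19 zone sums, and in muscles 1, 2 and 4 it was above the low-barcode flank. The log2 difference was -0.44 ± 0.15 (edgeR adjusted p = 0.830, and 0.00106 with no filter on low counts), while muscles 1 to 4 gave -0.23, -0.16, -2.17 and -0.58. Among the single sections of muscle 3, 9 central sections had a median of 3.28 CPM (range 0 to 9.38) and 17 flank sections 17.5 CPM (6.73 to 38.4).

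Cells between the fibres showed no called difference. By edgeR 0 genes were called among 11 markers of fibro-adipogenic progenitors, 11 of endothelium, 9 of smooth muscle and pericytes, 6 of Schwann cells and 5 of macrophages. Of these 1, 1, 0, 0 and 0 had an unadjusted p under 0.05 (5.27% of all genes). With 0.0415% of all genes called, 0 calls do not set these markers apart. The median differences were 0.09, 0.06, -0.02, 0.17 and 0.19. All 5 macrophage markers were positive, with summed levels of 36.4, 37.8, 29.6 and 64.9 CPM in the centre of muscles 1 to 4 against 34.7, 35.7, 29.8 and 44.8 CPM in the flanks, with the widest gap in muscle 4. The macrophage markers C1qa, Cd68, Adgre1 and Cd163 were too low to be tested, and the part of such cells in the difference of Itgad was not tested. Of 10 immediate early genes, which are induced within minutes of stress or handling, 7 were measured and all 7 were positive, with a median of 0.20, 1 at an unadjusted p under 0.05 and 0 called. The 6 measured tendon genes were all negative, with a median of -0.25, 2 at an unadjusted p under 0.05 and 0 called. Of 5 muscle spindle genes 0 were measured. Of 15 glycolytic genes 12 had negative differences, with a median of -0.05 and 0 called (2 at an unadjusted p under 0.05). Over all genes 52.3% of differences were positive. Genes of a list come from the same sums and may vary together, so runs of 1 sign are not independent counts.

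Set against each flank alone, the central zone differed in other genes, among them 4 haemoglobin genes, Actc1, Prg4, Chad and Fmod. Against the low-barcode flank 5 of 9632 genes were called (0.0519%), all lower in the centre, and 556 (5.77%) had an unadjusted p under 0.05. Against the high-barcode flank 14 were called (0.145%), 5 higher (0.0519%) and 9 lower (0.0934%), and 741 (7.69%) had an unadjusted p under 0.05. These 19 calls were 19 different genes, with 0 called against both. For 13 of the 19 the centre lay between the flanks, and for 6 it had the same direction against both.

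Lower than in the low-barcode flank were the haemoglobin genes and Actc1, the cardiac actin also made by immature fibres. Actc1 held 341, 138, 62.03 and 84.1 CPM in the centre of muscles 1 to 4. Its low-barcode flanks held 603, 199, 183 and 131 CPM and its high-barcode flanks 318, 141, 42.04 and 65.7 CPM. The centre was below the low-barcode flank in 4 of 4 muscles (log2 difference -0.93, edgeR adjusted p = 3.05e-05), and against the high-barcode flank it was at 0.21 (edgeR adjusted p = 0.782). Hba-a1 held 1252, 1077, 644 and 1011 CPM in the centre against 1685, 1681, 1171 and 2388 CPM in the low-barcode flanks, a log2 difference of -0.78 (edgeR adjusted p = 0.000251). Hbb-bs, Hbb-bt and Hba-a2 were at -0.72, -0.73 and -0.67. The haemoglobin pairs are near-identical copies between which counting can divide reads.

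Lower than in the high-barcode flank were 9 genes, of which Prg4, Chad and Fmod are known from tendon, cartilage or joints. Prg4, the joint lubricant, held 22.9, 16.5, 9.15 and 6.59 CPM in the centre of muscles 1 to 4 against 53.1, 39.2, 14.9 and 12.6 CPM in the high-barcode flanks. It was lower in 4 of 4 muscles (log2 difference -1.11, edgeR adjusted p = 1.73e-06), while the low-barcode flanks held 10.6, 14.5, 5.25 and 9.63 CPM. Chad and Fmod, matrix proteins of tendon and cartilage, were at -1.55 (edgeR adjusted p = 9.66e-05) and -1.34 (edgeR adjusted p = 0.00328), at 4.93 CPM or less in the centre of each muscle for Chad. Net1 (-0.74), Tigd4 (-1.35), the pseudogene Gm9700 (-0.80), Mss51 (-0.77), Tmem100 and Car3, the carbonic anhydrase of muscle (-0.46), were lower as well. Higher in the centre than in the high-barcode flank were Ccl21a, a chemokine of lymphatic vessels (1.43, edgeR adjusted p = 0.00972), the noncoding RNA H19 (0.35), Myh2, Itgad and AL645799.1. Ccl21a lay between its flanks in 4 of 4 muscles, with 12.6, 13.6, 10.5 and 7.12 CPM in the low-barcode flank. H19 was below its low-barcode flank in muscles 1, 2 and 3.

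**Figure D5:**
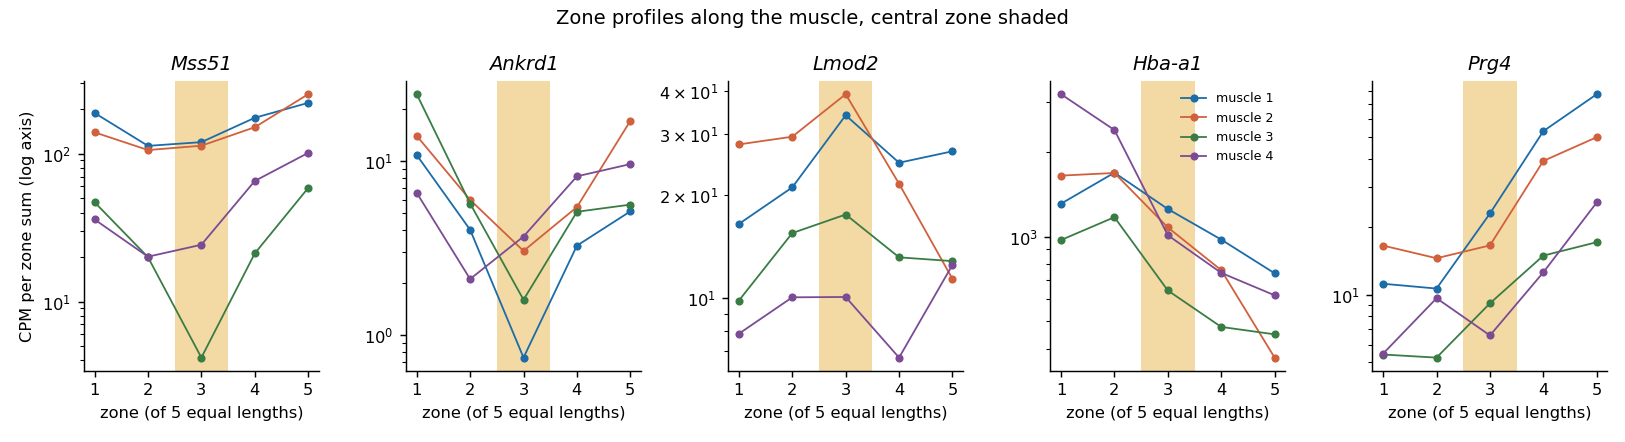
CPM per zone sum (log axes) over the 5 zones of each muscle, in order of barcode number, for 5 genes, with the central zone shaded and a line per muscle. Lmod2 is highest in the centre in muscles 1, 2 and 3, Ankrd1 is lowest there in the same muscles, Mss51 is lowest there in muscle 3, Hba-a1 falls from zone 2 to zone 5 and Prg4 is highest in zone 5.

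The difference between the 2 sets of section barcodes was itself tested. No gene differed between muscles 1 and 2 and muscles 3 and 4 in the contrast of centre and flanks by edgeR (0 of 9632, with 473, or 4.91%, at an unadjusted p under 0.05). Within muscles 1 and 2 alone 0 genes were called and within muscles 3 and 4 alone 1, Itgad. Myh2 was at 0.42 and 0.45 in these sets and Tmem100 at -0.44 and -0.54.

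Single sections of 1 muscle gave calls in muscle 3 for the most part. By edgeR on sections, 0 of 2852 genes were called in muscle 1 (184 at an unadjusted p under 0.05), 1 of 1953 in muscle 2 (0.0512%), 24 of 3266 in muscle 3 (0.735%) and 0 of 2414 in muscle 4 (136 at an unadjusted p under 0.05). Their p-values rest on sections of a single muscle, not on animals. The gene of muscle 2 was Gucy2c, at 1.06 there and at -1.45 in muscle 1. In muscle 3, 16 genes were higher and 8 lower in the centre. The higher included Cox8b (0.65), Ndufa4 (0.36), the fatty acid transporter Cd36 (0.38) and the ribosomal protein Rpl37a (0.60), and the lower Mss51 (-2.24), Tmem100 (-0.72), Igfbp5 (-0.46) and Pkm, the last enzyme of glycolysis (-0.32). Cox8b, Ndufa4 and Cd36 were positive in 4 of 4 muscles and Rpl37a in 2 of 4. Muscle 3 is counted here though it picked these genes, so only the other muscles bear on the sign. Of the other genes called higher there, Prdx1 was positive in 1 of 4 muscles and Atp5j and Capza2 in 2 of 4. Over all genes 13.2% had the same sign in 4 of 4. The mitochondrial share of counts in muscle 3, which rests largely on saturated genes, was 67.99% in the centre and 62.9% in the flanks. Its part in these differences was not tested.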

How the data were processed

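Values were estimated counts per gene and section barcode, which the authors deposited for 96 barcodes per muscle. Per the submitters' processing notes, the aligner was STAR 2.7.7a and the genome GRCm38. The counting program, its annotation and its strand setting were not given in the sources used here. Estimated counts equal numbers of unique molecular identifiers of 6 bases, corrected for identifiers drawn more than once out of 4096, so 22 genes with at least 90% of identifiers used in a kept section are saturated and uncertain. The authors also deposited a filtered table of normalized signal per muscle, used here only to find the kept sections (columns that match after scaling within a relative tolerance of 1e-06). Entries naming several genes, 0.58% to 0.93% of a muscle's counts, were left out. Of 28989 genes 28895 matched GENCODE M21.

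Estimated counts were summed over 5 zones of equal length per muscle and rounded to whole numbers, for a total of 20 sums, with 1989683 to 6604613 transcripts each. They were fitted in edgeR 4.0.16 (R 4.3.3; TMM, filterByExpr, quasi-likelihood F-test, zone plus muscle, Benjamini-Hochberg at 0.05 over all tested genes), with a biological coefficient of variation of 7.05%. The pairing comes from the design, since zones of 1 muscle share a sample. The SE comes from the F statistic of the fit to all 20 sums (60.7 degrees of freedom), not from the single-muscle differences. CPM per zone sum are TMM-scaled, those of single sections are not, and differences of single muscles use log2(CPM + 0.5). Alternatives used DESeq2 1.42.0, limma 3.58.1 on log2(CPM + 1), and other scaling, filters, samples, depths and zone limits. On counts simulated with no differences between muscles, the fit recovered 32 of 48 changes of 1.5-fold and 42 of 49 of 2-fold. Such counts hold no zone differences that vary between muscles, so the simulation does not cover that spread.

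Named genes were those called in any of the 3 contrasts, the 10 of smallest p per direction with the same sign in 4 muscles and at least 10 CPM, all measured synapse genes, and up to 3 of the largest differences of other lists. Members and lists were chosen with earlier results of these data known.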

Additional observations from a re-analysis of the deposited data

Results flagged for a closer look

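In 4 of 36 sets of per-muscle log2 differences (central zone minus mean of the flanks) that were examined, 1 muscle stood apart from the other 3 by more than Dixon's 95% critical value for 4 samples. Chance flags about 1 in 20 sets. For H19 muscle 1 was at -0.111, against 0.152 to 0.172 in the others. For Hba-a2, whose reads can be shared with its near-identical copy, muscle 4 was at -0.709, against -0.116 to -0.0126. For the respiratory chain subunit Cox8b muscle 3 was at 0.676, against 0.0655 to 0.133. For Spns2 muscle 2 was at -0.850, against -0.306 to -0.235. The cause was not tested in any of the 4.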

How the results depend on the processing

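The count of genes called between centre and flanks was 4, and the alternatives gave 0 to 11. It was 0 with DESeq2, with limma, with no replicate block, within muscles 1 and 2, with sums thinned to the shallowest, with flanks next to the centre only and among genes of at least 10 CPM (an alternative chosen after seeing the data). It was 1 within muscles 3 and 4, 2 with uncorrected identifiers or a narrower centre, 11 with no filter on low counts, and 1 to 5 without 1 muscle. Against the low-barcode flank the count of 5 became 0 with DESeq2 or no replicate block, 17 with no filter, 10 with a narrower centre, and 7 to 9 without 1 muscle. Against the high-barcode flank the count of 14 became 3 with limma, 27 with no filter, 25 with zones 2 to 4 only, 0 with no replicate block, thinned sums or adjacent flanks, 4 within muscles 1 and 2, 7 within muscles 3 and 4, 1 among genes of at least 10 CPM, and 7 to 22 without 1 muscle. Between barcode sets 0 became 2 with no filter and 1 with a narrower centre. The causes were not tested. Signs of the 4 called genes and of 19 of the 20 leading genes held in every alternative that tested them. The alternatives reuse the data by which these genes were picked, so this is not independent support. None of 19 synapse genes was called in any. For the barcode sets the DESeq2, limma, block, left-out-muscle, single-set and 10 CPM alternatives were not run, and for fits of single sections scaling, saturated genes and identifiers alone were varied. Depth limits low genes: 585 of 9632 intervals reach beyond 1 log2 unit.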
